A study of Mus with 12 samples.

Results

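m6A peaks in transcripts of pre-mRNA splicing factors and RNA-binding motif genes were compared between livers of mice fed a high-fat diet (HFD) and livers of mice fed a low-fat diet (called WT by the study), with 3 mice in each group. All were male C57BL/6J mice, 6 weeks old at the start, that were fed for 12 weeks with 60% of the energy from fat in the HFD group, against 10% in the WT group. MeRIP-seq recovers mRNA fragments with an antibody to N6-methyladenosine (m6A), and a peak marks where recovered fragments pile up relative to the unselected input of that mouse. Each mouse gave 1 peak list (HFD 1, HFD 2 and HFD 3, and WT 1, WT 2 and WT 3). Since the labels name the high-fat diet for control samples too, titles defined the groups. The genes were chosen by name: all those called Srsf, Tra2, Sfswap, Srrm, Sf3a, Sf3b, Snrnp, Prpf, Hnrnp or Rbm, apart from Rbm15, Rbm15b, Hnrnpc and Hnrnpa2b1, whose products are themselves known to write or read m6A. Of the 7906 genes with a peak in at least 1 list, 77 met this rule. They held 985 of the 68562 peaks, and these fell into 243 of the 18374 regions that were made by joining peaks of the 6 lists that overlapped.

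The spliceosome removes introns from pre-mRNA and is built from small nuclear ribonucleoproteins (U1, U2, U4, U5 and U6) and many associated proteins. SR proteins mostly favour the use of nearby exons, whereas heterogeneous nuclear ribonucleoproteins (hnRNPs) often oppose it. Many genes of both families hold conserved alternative exons with early stop codons, through which their own level is kept in check. In mammalian mRNA, m6A is most frequent near stop codons and in long internal exons. No sequence of the regions was read, since no genome sequence was used here, and the lists give no strand.

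The lists held 12898, 11925 and 10288 peaks in HFD 1, HFD 2 and HFD 3, against 10109, 10376 and 12966 peaks in WT 1, WT 2 and WT 3. Depth per library is unknown, so a gene without a listed peak may lack methylation, transcript or reads. In a bulk liver sample, fewer cells of a type and less RNA per cell cannot be told apart. Of 35 skeletal muscle genes, each HFD library had peaks in 2, against 2 in WT 1, 24 in WT 2 and 29 in WT 3. Summed over that list there were 2 to 8 peaks per HFD library, against 13 in WT 1, 120 in WT 2 and 160 in WT 3. Ttn and the myosin genes Myh1, Myh2, Myh4 and Myh7 had no peak in the HFD libraries and WT 1, and 6 genes of the list had none in any library. Of 24 hepatocyte gene names, 5 to 7 had a peak per HFD library, against 4 to 5 per WT library, and Alb, which encodes albumin, had none. Tf and Trf on that list both stand for transferrin, and neither name had a peak. The list of leukocyte genes had peaks in 4 to 6 of 15 genes per HFD library, against 3 to 4 per WT library.

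Most of the splicing genes had m6A peaks in the livers of both diets. Of the 77 genes, 43 (55.8%) had a peak in all 6 lists, beside 49.2% of all genes with a peak. A further 27 genes had a peak in 2 to 5 lists and 7 genes (9.09%) in a single list, beside 14.1% of all genes. HFD 1, HFD 2 and HFD 3 had peaks in 66, 62 and 54 of the genes, against 54, 54 and 62 in WT 1, WT 2 and WT 3. The mean was 60.7 ± 6.11 genes in HFD livers and 56.7 ± 4.62 genes in WT livers (SD, n = 3 each), a difference of 4 genes that was smaller than either spread. The libraries with the most of these genes, HFD 1, HFD 2 and WT 3, also had the longest lists. As a share of each list, peaks in splicing genes made up 1.38%, 1.45% and 1.49% in HFD livers, against 1.46%, 1.53% and 1.34% in WT livers. The groups overlapped, with a mean of 1.44 ± 0.0545% in HFD livers and 1.45 ± 0.0965% in WT livers (SD, n = 3 each). Without WT 2 and WT 3, a setting added after the data were seen, the difference was 6.67 genes and -0.0247 percentage points.

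**Figure D1:**
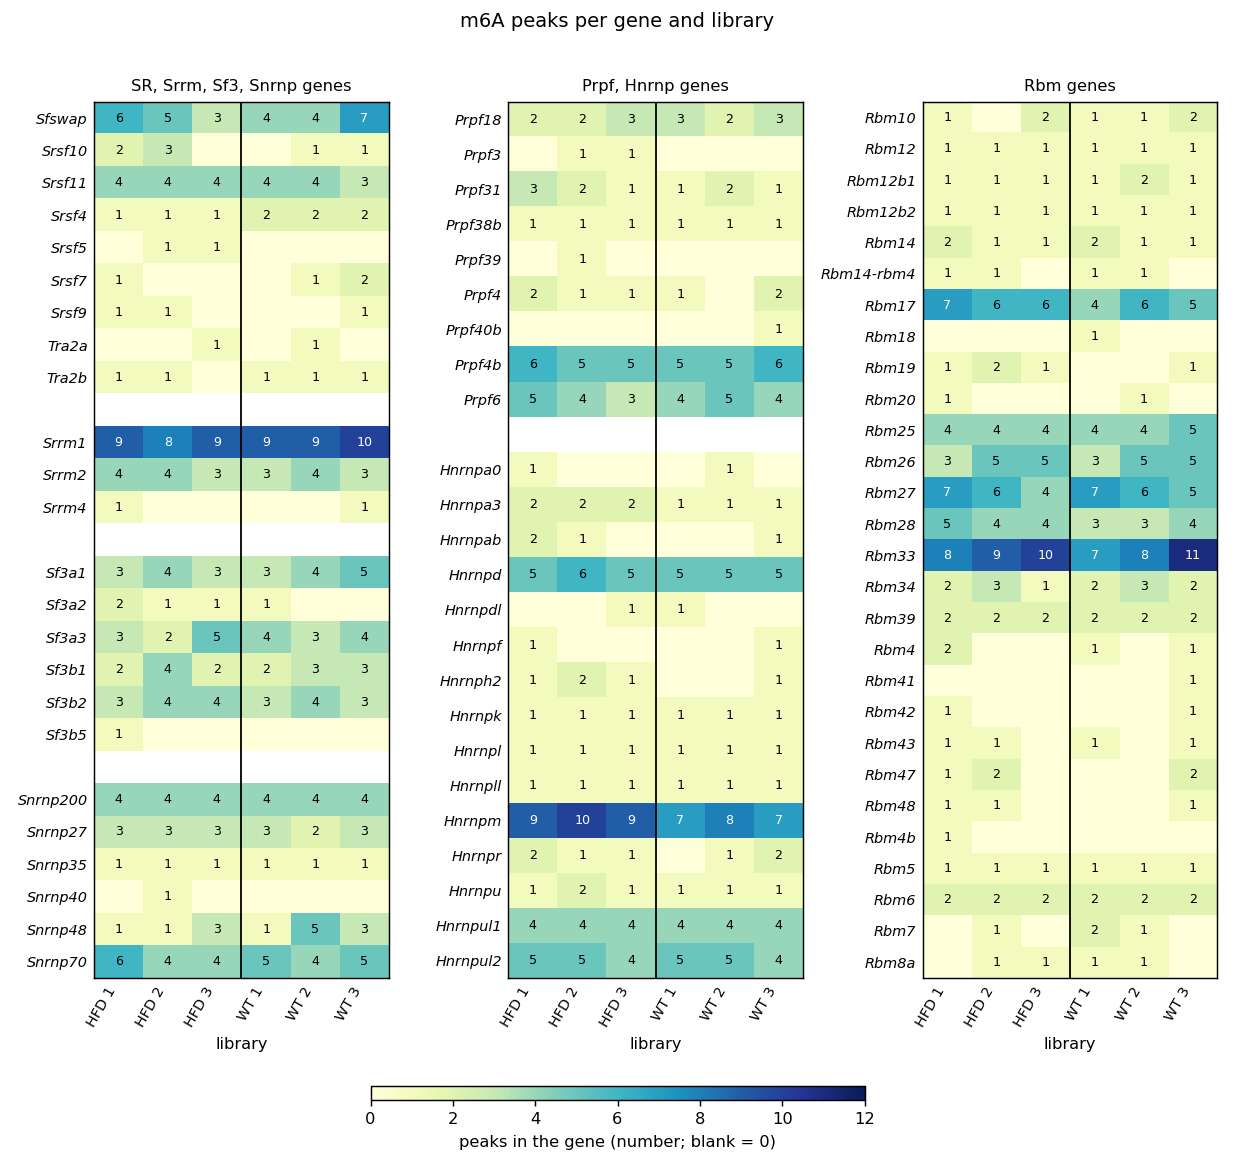
Number of m6A peaks in 76 of the 77 splicing and RNA-binding motif genes (rows, by subfamily) in the 3 HFD and 3 WT libraries (columns, split by a line). Srrm1, Hnrnpm and Rbm33 had at least 7 peaks in every library, while Srsf5 and Prpf3 had 1 peak in HFD 2 and HFD 3 and none elsewhere.

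Over all genes with a peak, 49.2% had one in all 6 lists. The 7 subfamilies varied around this share, and so few genes per subfamily cannot be set apart from it. Of the 6 Snrnp genes, which encode proteins of the spliceosomal ribonucleoproteins, 5 had a peak in all 6 lists. So had 2 of 3 Srrm genes, 4 of 6 Sf3 genes, 6 of 10 Prpf genes, 9 of 15 Hnrnp genes, 14 of 28 Rbm genes and 3 of 9 genes of the SR group (Srsf, Tra2 and Sfswap). The 3 SR genes in all lists were Srsf4, Srsf11 and Sfswap. Tra2a and Tra2b, which encode SR-like activators of exon inclusion, had a peak in 2 and 5 lists and were named after their values were seen. A peak in more HFD than WT lists was seen for 15 of the 77 genes, beside 22.8% of all genes, and a peak in more WT than HFD lists for 8 genes, beside 17.7% of all genes. The other 54 genes had as many lists in both diets.

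Peaks of the splicing genes were comparatively strong, short and internal. The fold enrichment of a peak is the authors' ratio of immunoprecipitate to input, and its median was 9.11 over the peaks of the splicing genes and 7.64 over the peaks of all genes. By subfamily it ran from 6.43 in the Sf3 genes to 12 in the Prpf genes. Regions were 203 bases long at the median, and 263.5 bases in the Srrm genes, beside 258 bases over all regions. Of the 243 regions, 106 (43.6%) had a peak in all 6 lists, beside 34.0% of all 18374 regions. Among these 106 regions, 82 (77.4%) had the same bounds in every list that held them, beside 63.4% of the 6245 regions of all genes in all 6 lists. Those of Snrnp70 (chromosome 7, 45376454 to 45377278) and Sf3b2 (chromosome 19, 5273921 to 5274527) began exactly at the lower bound of their gene. Whether shared bounds and short regions came from the gene annotation was not tested. Only 13 of the 106 regions (12.3%) lay within 500 bases of either end of their gene, beside 27.4% of 6113 such regions of all genes whose gene could be placed. With a gene counted once for each of its regions, the median gene length was 32794 bases over these regions, beside 43045 bases over all such regions. The part of gene length in the position of the regions was not tested. These shares are descriptions, and expression, which bears on the finding of peaks, was not measured here.

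The highest ranked of the Snrnp genes were Snrnp200, Snrnp27 and Snrnp70, which belong to the U5, tri-snRNP and U1 particles. All values per library are fold enrichments, listed by replicate number within each diet. Snrnp200, which encodes the U5 helicase that unwinds the U4/U6 duplex, had 4 regions and all were in every list. Its strongest, on chromosome 2 from 127211600 to 127211792, had 72.0, 49.4 and 41.2 in HFD livers, against 55.7, 61.4 and 81.1 in WT livers. Snrnp27, which encodes a tri-snRNP protein, had 56.9, 63.4 and 37.1 in HFD livers, against 54.2, 38.8 and 39.0 in WT livers, on chromosome 6 from 86681591 to 86681703. Snrnp70, which encodes the 70-kDa U1 protein that contacts U1 snRNA, had 44.1, 35.1 and 24.9 in HFD livers, against 27.7, 35.3 and 40.5 in WT livers, in a region that began at the lower bound of the gene on chromosome 7 (45376454 to 45377278). In each of the 3 genes the diets overlapped. Prpf6, which encodes a protein that bridges U5 and U4/U6, had 22.3, 24.4 and 36.2 in HFD livers, against 31.0, 24.9 and 31.5 in WT livers. Not every gene of these particles had values as high as these, as 3 genes named after their values were seen show. Snrnp40, which encodes a U5 protein, had a single peak of 6.89 in HFD 2. The strongest region of Prpf4, which encodes a U4/U6 protein, had 6.47, 5.02 and 5.49 in HFD livers, against 8.51 and 5.42 in WT 1 and WT 3 and no listed peak in WT 2. That of Prpf31, another U4/U6 protein gene, had 12.5, 14.8 and 6.40 in HFD livers, against 10.2, 14.8 and 11.9 in WT livers.

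Peaks of the Sf3 genes, which encode U2 proteins that act at the branch point, were weaker at the median. The median fold enrichment was 6.43 over the peaks of the 6 Sf3 genes, beside 7.64 over the peaks of all genes. It was 7.76 for the Srrm, 8.1 for the SR, 8.57 for the Rbm, 11.7 for the Hnrnp, 11.8 for the Snrnp and 12 for the Prpf genes. Over regions in all 6 lists, the median of the geometric means over the libraries was 7.75 in the Sf3 genes and 7.64 in the Srrm genes. The strongest steady region of Sf3b1, whose protein contacts the branch point region of the intron, had 6.94, 9.22 and 8.06 in HFD livers, against 6.39, 7.72 and 5.61 in WT livers (chromosome 1, 55014483 to 55015123). Sf3b2 had 8.28, 9.21 and 8.68 in HFD livers, against 8.85, 7.51 and 9.37 in WT livers, and Sf3a3 had 10.8, 11.8 and 15.5 in HFD livers, against 14.4, 12.5 and 15.7 in WT livers. The values of both diets overlapped in all 3 regions. Of the 106 regions of the splicing genes, 16 (15.1%) were above the 90th percentile of their list in all 6 lists, beside 8.63% of the 6245 regions of all genes. They were 6 Hnrnp, 4 Snrnp, 3 Rbm, 2 Prpf and 1 Srrm regions. None of the 10 Sf3 and 6 SR regions was among them, and so few regions cannot be set apart from that share.

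Of the SR genes, which encode serine and arginine rich proteins, Srsf11 had the highest ranked region in all 6 lists, with 22.9, 25.8 and 39.5 in HFD livers, against 24.7, 18.9 and 32.7 in WT livers, on chromosome 3 from 158016322 to 158016453. Another region of Srsf11 (158011585 to 158012203) was stronger but in 5 lists only, with 58.3, 36.1 and 46.5 in HFD livers, against 45.8 and 39.0 in WT 1 and WT 2 and no listed peak in WT 3. Srsf4 had 13.4, 13.4 and 9.71 in HFD livers, against 7.90, 10.1 and 13.4 in WT livers, and Sfswap, the homologue of the fly suppressor of white-apricot, had 14.5, 10.4 and 7.48 in HFD livers, against 12.3, 9.48 and 13.2 in WT livers. The Sfswap region began 20 bases inside the lower bound of the gene. Srrm1, which encodes a splicing coactivator with long arginine and serine repeats, had 10 regions, of which 8 were in all 6 lists. Its strongest region had 47.1, 31.0 and 48.7 in HFD livers, against 30.5, 28.5 and 49.99 in WT livers (chromosome 4, 135322033 to 135322499). Srrm2, which encodes a scaffold protein of nuclear speckles, had 26.5, 30.5 and 18.9 in HFD livers, against 15.7, 20.6 and 20.6 in WT livers. None of these regions separated the diets.

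The strongest region of the whole set lay at the upper bound of Hnrnpm, which encodes an hnRNP that regulates alternative exons. On chromosome 17 from 33685267 to 33687444, it had 207, 136 and 117 in HFD livers, against 88.8 and 115 in WT 1 and WT 2, all from peaks given to Hnrnpm. In WT 3 its only peak, of 176, was given to the gene March2. The region ran 1986 bases past the upper bound of Hnrnpm, so its signal cannot be assigned to Hnrnpm alone. The next region of Hnrnpm (33676780 to 33677440) lay inside the gene and had 83.0, 104 and 72.5 in HFD livers, against 57.4, 109 and 78.0 in WT livers. Hnrnpd, whose protein AUF1 binds AU-rich elements of mRNA, had 85.2, 46.8 and 34.5 in HFD livers, against 27.3, 36.4 and 51.2 in WT livers (chromosome 5, 99978392 to 99978938). Hnrnpk, whose protein binds C-rich RNA, had a single region with 31.8, 23.3 and 28.8 in HFD livers, against 26.4, 28.1 and 26.5 in WT livers. The diets overlapped in these regions, in the one shared with March2 only through its WT 3 value, and the Hnrnpd region of HFD 1 was well above those of the other 5 mice.

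Among the Rbm genes the peaks of Rbm39, whose protein resembles the U2AF subunit that marks the 3′ splice site, stood out. Its main region had 78.1, 108 and 102 in HFD livers, against 118, 90.6 and 107 in WT livers, on chromosome 2 from 156172828 to 156173022. The other region of Rbm39, which ended 2 bases past the upper bound of the gene, had a geometric mean over the 6 libraries that was 7.11 times lower. Rbm17, which encodes the alternative splicing factor SPF45, had 32.2, 43.6 and 32.2 in HFD livers, against 32.2, 24.99 and 43.2 in WT livers. Rbm25, which encodes a splicing regulator, had 22.5, 49.4 and 39.3 in HFD livers, against 21.4, 34.4 and 40.4 in WT livers. The groups overlapped in each. Rbm26, named after its values were seen, had a region with 56.2, 70.2 and 29.8 in HFD livers, against 51.2 and 78.5 in WT 2 and WT 3. In WT 1 the strongest peak of Rbm26, of 70.8, lay in another region. Rbm8a, named after its values were seen, encodes the exon junction protein Y14 and had a strong peak in HFD 2 and HFD 3 (33.7 and 37.3), against 39.7 and 29.9 in WT 1 and WT 2, with no listed peak in HFD 1 and WT 3, the libraries with the longest lists.

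**Figure D2:**
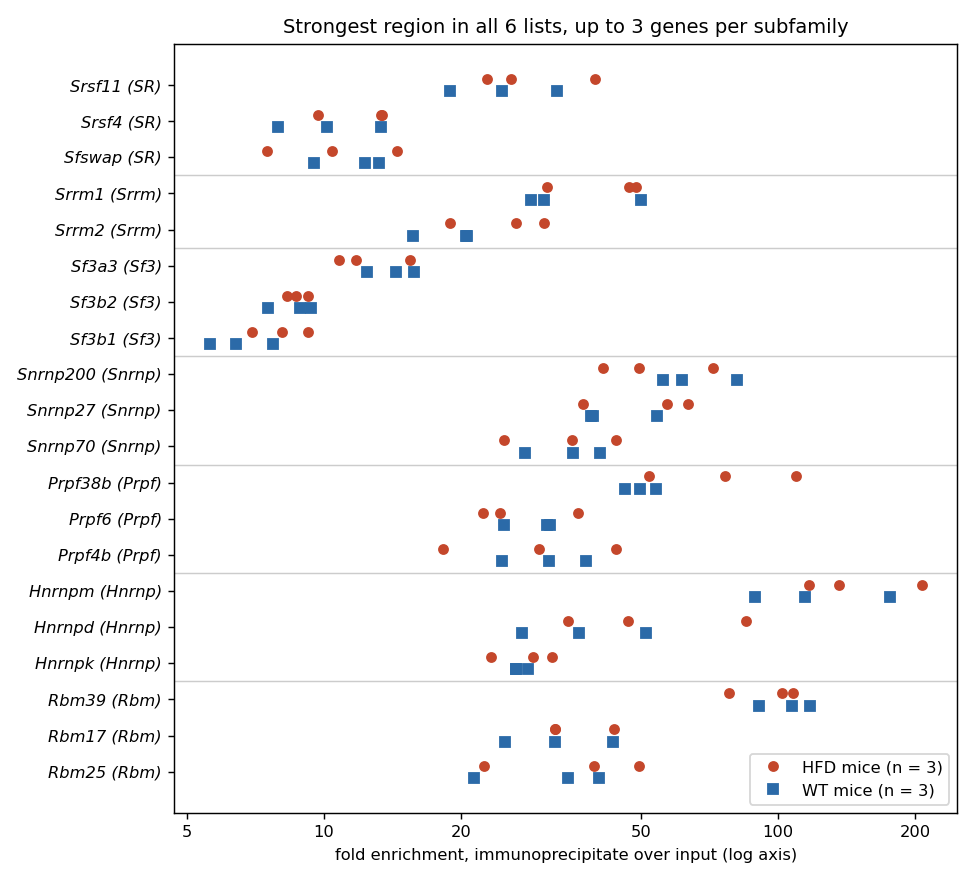
Fold enrichment (log axis) in each HFD and WT library of the region found in all 6 lists that ranked highest by its lowest within-list percentile, for up to 3 genes per subfamily. The HFD circles and WT squares overlap for every gene, in Hnrnpm only through the WT 3 value, which is a peak given to March2, from values under 10 in Sf3b1 to values over 100 in Hnrnpm and Rbm39.

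Of the 27 splicing genes with at least 2 regions in all 6 lists, 15 (55.6%) had the same strongest region in every library, close to the 50.3% of 1317 such genes. The count was the same with only the peaks given to the splicing genes, by which 105 regions were in all 6 lists. The strongest region of a gene exceeded its weakest by 2.46 times at the median, beside 1.91 times over all such genes. Such a ratio can rise with the number of regions compared, which was not matched between the sets. The ratio was 19.9 in Hnrnpm, or 12.2 without the region shared with March2, 10.5 in Srrm1 and 7.19 in Snrnp70. Among the genes with the most regions were Rbm33 with 12, Hnrnpm and Srrm1 with 10 each and Rbm27 with 9. Of these, 5 regions of Rbm33, 7 of Hnrnpm, 8 of Srrm1 and 4 of Rbm27 were in all 6 lists, and 6 of Hnrnpm by its own peaks. Over all splicing genes, 19 genes with at least 5 regions held 136 of the 243 regions, and 29 genes had a single region. Regions in a single list had a median fold enrichment of 4.87, against 13.1 for regions in all 6 lists, beside 5.18 and 10.4 over all genes. Of the 48 regions in a single list, 36 were in HFD 1, HFD 2 or WT 3. Over all genes, these libraries held 1223, 689 and 1288 of the 4355 such regions.

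**Figure D3:**
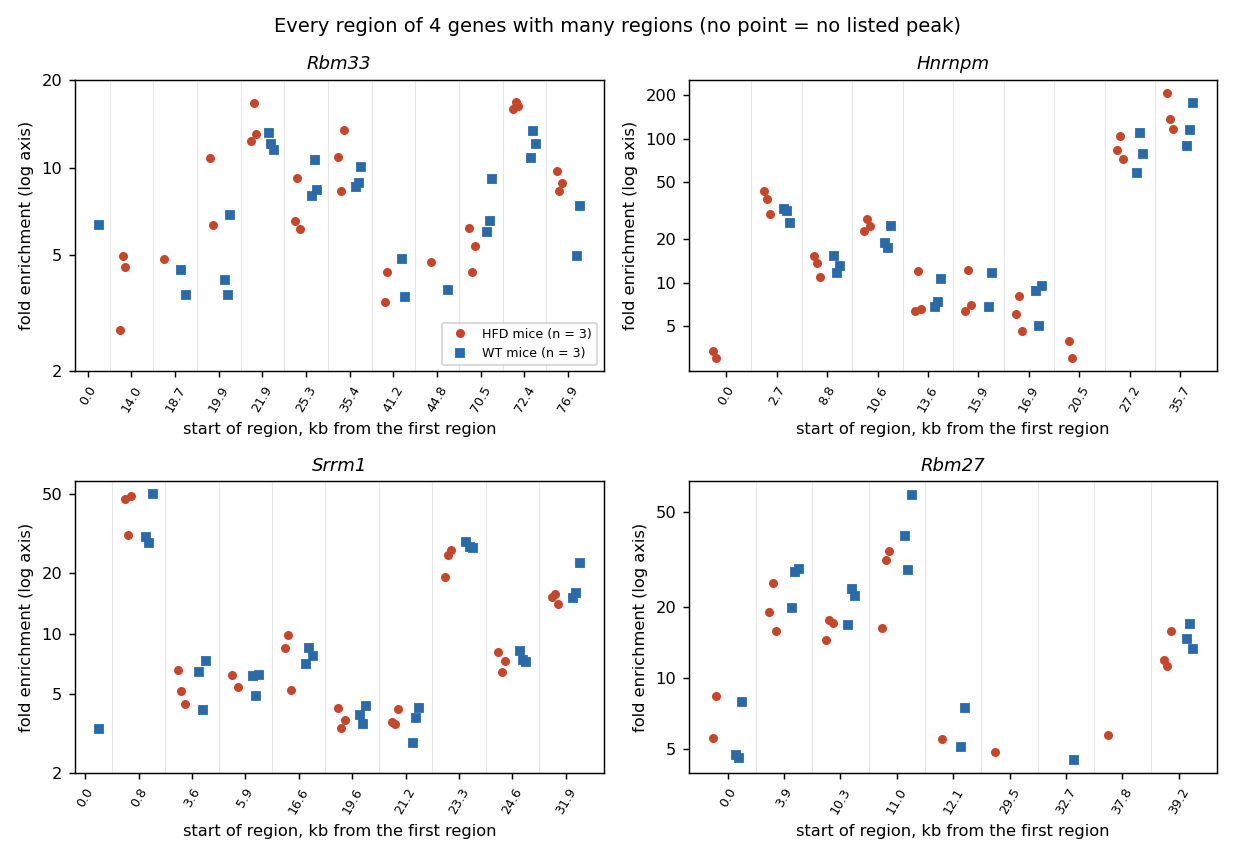
Fold enrichment (log axis) of every region of Rbm33, Hnrnpm, Srrm1 and Rbm27 in the 3 HFD and 3 WT libraries, with regions in order along the chromosome and labelled by their distance in kb from the first region. The strongest region of Srrm1 (the one at 0.8 kb) was the same in every library, the WT 3 value in the last region of Hnrnpm is a peak given to March2, and 1 region of Rbm33 has points in HFD libraries only, all of them under 5.

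To ask whether the diet changed the strength of the peaks, the log2 fold enrichment of the regions in all 6 lists was compared with limma, with each library centred on its median. No region of any gene passed an adjusted p of 0.05 in this test, neither higher in HFD livers (0% of 6245 regions) nor lower (0%). At an unadjusted p under 0.05 there were 304 regions, and 1 of these was among the 106 regions of the splicing genes. The log2 differences of the splicing genes (HFD minus WT) had a median of -0.02, and the median over all regions was also -0.02. The difference was above 0 in 48 regions and below 0 in 58. Their 95% intervals reached 0.57 to either side at the median, so smaller changes of a single region lay within the error. The median absolute difference was 0.20 in the splicing genes and 0.19 over all regions, and 5 of 106 differences (4.72%) were beyond 0.5, beside 8.98% over all regions.

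Among the largest differences were those in Rbm27, Prpf38b, Rbm6 and Sf3a3, and their 95% intervals all included 0. A region of Rbm27, which encodes a zinc finger RNA-binding protein, had 16.3, 31.6 and 34.3 in HFD livers, against 39.8, 28.6 and 59.3 in WT livers, with a log2 difference of -0.69 (95% interval -1.44 to 0.06). HFD 1 was the lowest of the 6 mice, and the others overlapped. The only region of Prpf38b, on chromosome 3 from 108903442 to 108904762, had 52.0, 110 and 76.5 in HFD livers, against 49.7, 53.7 and 45.9 in WT livers, with a log2 difference of 0.57 (95% interval -0.11 to 1.24). Here HFD 2 and HFD 3 were above all WT mice and HFD 1 was not. A region of Rbm6, which encodes a splicing regulator related to its neighbour Rbm5, had 5.39, 6.89 and 7.16 in HFD livers, against 9.21, 8.40 and 9.79 in WT livers (chromosome 9, 107791752 to 107792018). These groups did not overlap, and the log2 difference was -0.55 (95% interval -1.10 to 0.01). A region of Sf3a3 that crossed the lower bound of the gene (chromosome 4, 124714776 to 124714990) had 9.87, 8.40 and 11.2 in HFD livers, against 17.2, 9.23 and 16.3 in WT livers, with a log2 difference of -0.54 (95% interval -1.14 to 0.07).

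**Figure D4:**
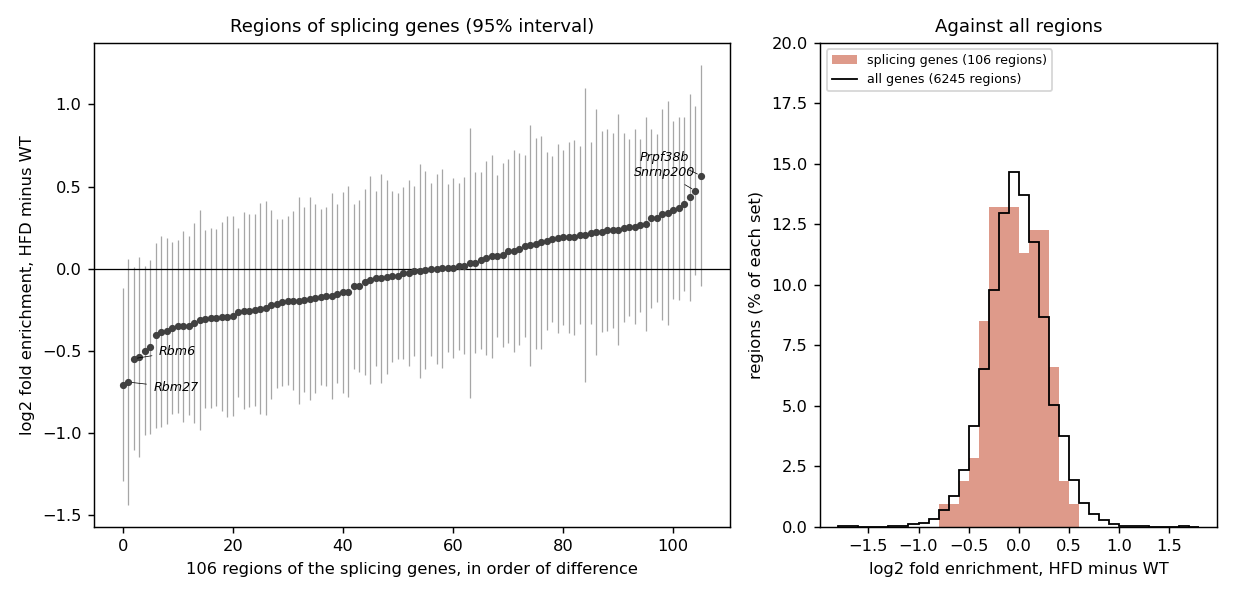
Left, log2 fold enrichment (HFD minus WT) of the 106 regions of splicing genes found in all 6 lists, in order, with 95% intervals from limma. Right, the share of regions by size of that difference for the splicing genes (filled) and for all 6245 regions (line). The difference is above 0 in 48 of the regions and below 0 in 58, and the filled bars lie within the line's range.

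After centring, all HFD libraries were above all WT libraries in 3 of the 106 regions, beside 4.48% of the 6245 regions, and below them in 6 regions, beside 5.09%. The 3 higher regions were in Prpf4b, which encodes a kinase that phosphorylates spliceosome proteins, and in Snrnp200, which had 2. One of these, at 127208974 to 127209137 on chromosome 2, had 21.2, 15.3 and 18.2 in HFD livers, against 11.3, 12.3 and 14.5 in WT livers, a log2 difference of 0.48 (95% interval -0.04 to 0.99). The strongest region of Snrnp200 had a log2 difference of -0.35 (95% interval -0.88 to 0.18), so the regions of this gene did not share a direction. Among the 6 lower regions were 1 each in Rbm33, Rbm6, Sf3a1 and Srrm1. Sf3a1 and the regions of Snrnp200 were named after their values were seen.

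To ask whether peaks were gained or lost with the diet, regions were counted that had a peak in all 3 libraries of one diet and in none of the other. Of the 243 regions, 3 (1.23%) were found in HFD livers only, beside 0.718% of all regions, and 2 (0.823%) in WT livers only, beside 0.294% of all regions. Such counts are too small to set apart from these shares, and an exact test of 3 mice against 3 cannot reach p under 0.05 for a single region. 1 of the HFD regions lay in Rbm33, and the WT regions in Srsf4 and Sfswap. Leaving out WT 2 and WT 3, the libraries with the most muscle peaks, asked only for the absence of a peak in WT 1, or its presence there, and gave 12 and 8 regions, a setting added after the data were seen. With 1 library left out, regions in HFD livers only numbered 6 without HFD 1, 7 without HFD 3, 5 without WT 1 and 5 without WT 3, and those in WT livers only numbered 2 to 3.

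In Rbm33, which encodes an RNA-binding protein reported in human cells as a partner of the m6A demethylase ALKBH5, the HFD region from 28331111 to 28331189 on chromosome 5 had 2.77, 4.98 and 4.57 in HFD livers and no listed peak in WT livers. In HFD 1 it was at the 0.364th percentile of its list, near the lowest value that was deposited. Srsf4 had a WT region (chromosome 4, 131885208 to 131885661) with 4.86, 6.99 and 6.6 in WT livers and no listed peak in HFD livers, 11995 bases from its other region. Sfswap had a WT region (chromosome 5, 129513047 to 129513272) with 4.83, 5.84 and 9.31 in WT livers and no listed peak in HFD livers. The criterion itself required both WT regions to have a peak in WT 1, the WT library with the fewest muscle peaks. The part of muscle RNA in these regions was not tested. With lists cut to equal length, the Sfswap region still met the criterion, and those of Rbm33 and Srsf4 did not. With only peaks at or above the median of their list, none of these 3 regions met it.

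When a peak in at least 2 libraries of one diet and none of the other was enough, 10 of the 243 regions were found in HFD livers only, beside 3.96% of all regions, and 4 in WT livers only, beside 2.74%. The additional HFD regions were 2 in Hnrnpm and 1 each in Srsf5, Srsf10, Prpf3, Prpf31 and Rbm28, and 1 of the additional WT regions was in Snrnp48. These genes were named after their values were seen. The Snrnp48 region, in a gene for a protein of the minor spliceosome, had 4.23 and 4.38 in WT 2 and WT 3, the libraries with the most muscle peaks, and it was the only one of 281 regions found in just these libraries that belonged to a splicing gene. The part of muscle RNA in it was not tested. Counted by gene, 2 of the 77 genes had a peak in at least 2 HFD lists and no WT list, beside 2.97% of all genes, and 0 had a peak in at least 2 WT lists and no HFD list, beside 2.04%. The HFD genes were Srsf5, which encodes an SR protein and had 9.11 and 7.38 in HFD 2 and HFD 3, and Prpf3, which encodes a U4/U6 protein and had 5.88 and 4.30 there. Neither had a listed peak in HFD 1 or the WT livers.

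Among the genes with a peak in a few lists were some with a known role in liver or muscle, named after their values were seen. Rbm47, whose protein is a cofactor of the editing of apolipoprotein B mRNA, had its strongest region at 15.1 and 10.4 in HFD 1 and HFD 2, against 13.5 in WT 3. Rbm20, which encodes the regulator of titin splicing in heart and muscle, had 6.48 in HFD 1, against 6.38 in WT 2. Ttn had 0 peaks in HFD 1, 32 in WT 2 and 38 in WT 3, and WT 3 had no listed peak in Rbm20. The part of muscle RNA in the Rbm20 peaks was not tested. By contrast, Hnrnpl, also named after its values were seen, had 1 region in every list. It had 27.7, 15.4 and 15.5 in HFD livers, against 14.9, 14.8 and 18.0 in WT livers. Some members share sequence or position: Rbm14, Rbm4, Rbm4b and the read-through gene Rbm14-rbm4 lie together on chromosome 19, and how peaks were divided between them is uncertain. Of the 77 genes, 31 overlapped another gene of the reference annotation, and without strand a peak there cannot be assigned to one of them.

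Outside these families, further genes of the pathway were looked at as 2 lists. Of 77 further spliceosome genes, 63 had a peak and 46 had one in all 6 lists, and 125 of their 237 regions (52.7%) were in all 6 lists. The 4 strongest of them included Ddx23, which encodes the U5 helicase Prp28, with 51.0, 42.6 and 45.4 in HFD livers, against 43.9, 46.9 and 45.5 in WT livers. Ik had 61.0, 79.5 and 54.5 in HFD livers, against 56.2, 68.5 and 55.3 in WT livers. Ddx46, which encodes the U2-associated helicase Prp5, had 40.3 to 51.6 in HFD livers, against 44.1 to 57.0 in WT livers. Pqbp1 had 32.1 to 37.7 in HFD livers, against 35.7 to 38.2 in WT livers. All 4 overlapped between the diets. A peak in all HFD livers and no WT liver was found in 2 of the 237 regions of this list, beside 0.718% of all regions, and the opposite in 0, beside 0.294%. They lay in Pnn, which encodes an exon junction protein, with 4.86, 4.71 and 4.49 in HFD livers, and in Snrpd1, which encodes a core Sm protein, with 4.95, 8.46 and 6.16 in HFD livers, and neither had a listed peak there in WT livers. None of its 125 regions passed the adjusted test in limma, and 7 (5.6%) had an unadjusted p under 0.05, beside 4.87% of all 6245 regions.

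Of 56 splicing regulators outside these families, 38 had a peak, 30 had one in all 6 lists, and 60 of 131 regions (45.8%) were in all 6 lists. Tia1, which encodes an RNA-binding protein of stress granules, varied most of the 4 strongest, with 90.6, 86.6 and 171 in HFD livers, against 233, 264 and 82.2 in WT livers. Syncrip, which encodes hnRNP Q, had 94.5, 50.7 and 62.8 in HFD livers, against 51.3, 82.8 and 106 in WT livers. Safb2 had 49.9 to 70.6 in HFD livers, against 50.7 to 79.6 in WT livers, and Arglu1 had 63.8 to 88.8 in HFD livers, against 45.4 to 75.9 in WT livers. The diets overlapped in all 4 genes. None of the 60 regions passed the adjusted test in limma, 4 (6.67%) had an unadjusted p under 0.05, beside the same 4.87%, and no region was found in all libraries of one diet only.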

How the data were processed

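The authors sequenced m6A immunoprecipitates and inputs of fragmented liver mRNA and called peaks per library, with MACS2 2.1.0, Bowtie 1.1.2, Trimmomatic 0.33 and bcl2fastq 2.17 named in the submitters' processing notes. The 6 peak lists were used and the inputs were not analysed here. The deposited fold enrichment is a ratio with no scaling between libraries. The deposited score is minus 10 times the log10 of the p-value and is at least 50 in every list. The deposited false discovery rate was read as a percent, since it ran from 25 to 100. Read so, no listed peak had a rate under 25%, which sits badly with the scores, so the presence of a single peak is uncertain. The notes name a human build, but all 981 peaks of splicing genes with a gene ID in the RefSeq table overlapped their genes in mouse GRCm38, to which positions refer.

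Peaks were joined where they overlapped by 1 base, and the highest ratio per library was taken, whichever gene the peak was given to. limma 3.58.1 (R 4.3.3) compared log2 ratios of regions in all 6 lists, two-sided, with Benjamini-Hochberg adjustment over 6245 regions, and was tested on simulated data. The p-values rest on the spread between the libraries of these mice, with the variance of each region drawn toward that of all regions. The members, lists and tests were chosen with earlier results of these data known. Genes were named by peaks in one diet only, by the highest value of the lowest within-list percentile (3 per subfamily, 4 per further list), by the most regions (5 genes) and by the largest difference (5 genes). Results of 1 gene that this rule named are not reported here. Any other gene is marked where it was named after its values were seen. Alternatives changed the centring, the joining, the lists required, the peak threshold, the list length and the libraries.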

Additional observations from a re-analysis of the deposited data

How the results depend on the processing

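No region of a splicing gene passed the adjusted test under any of the 13 alternatives. Over all genes, the count of 0 regions became 2 when a peak in at least 2 lists of each diet was enough, and 0 to 2 with 1 library left out, and stayed 0 in the other alternatives, among them the fit with the replicate number as a block, which gave 0 regions. Lists with the same number did not deviate together, with correlations of -0.0438, 0.0243 and -0.221 across regions, so the numbers were not taken to pair mice. The 4 named differences (Rbm27, Prpf38b, Rbm6 and Sf3a3) were picked for their size in these same data. They kept their sign in all 52 values, with adjusted p from limma of at least 0.599. In some alternatives the difference could not change, among them the replicate block and a peak in at least 2 lists of each diet. All 52 values are therefore not separate checks. With 1 library left out the differences ranged from -0.98 to -0.26 in Rbm27, with -0.26 without HFD 1, and from 0.30 without HFD 2 to 0.93 without HFD 1 in Prpf38b. They ranged from -0.71 to -0.33 in Rbm6, with -0.33 without HFD 1, and from -0.78 to -0.34 in Sf3a3, with -0.34 without WT 1. Regions in HFD livers only and in WT livers only numbered 3 and 2. They numbered 1 and 1 with peaks at or above the median of their list, which were other regions, of Rbm33 and Rbm6, 1 and 1 with lists of equal length, and 10 and 4 when 2 libraries were enough. Without WT 2 and WT 3, chosen after the data were seen, they numbered 12 and 8. With 1 library left out they ranged over 3 to 7 and 2 to 3. Fewer libraries are then asked for, so counts can rise. The difference in genes per library ranged over 0.333 to 7.33 and that in the share of peaks over -0.0841 to 0.0363 percentage points. Depth is unknown, and with 3 mice per diet only large changes of single regions could be called.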
